A study of Mus musculus with 21 samples.

Results

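The 10 genes described here carry peptide presentation on MHC class I, the display of protein fragments to CD8+ T cells and NK cells. They were taken by symbol from the 41128 gene symbols of the deposited table. The members are the heavy chains H2-K1 and H2-D1, the light chain B2m, the peptide transporter genes Tap1 and Tap2, the loading factor Tapbp, the immunoproteasome subunits Psmb8, Psmb9 and Psmb10, and the regulator Nlrc5. All 10 had reads in every library and passed the filter on low values in both sets of libraries.

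RNA was sequenced from the striatum, a part of the forebrain, of wild type mice. It had been taken 3 weeks after local injection of adeno-associated virus (AAV). The libraries form 2 sets that the authors scaled apart, so a level is compared only within its set. Set A held 3 libraries labelled WT, 3 given virus labelled Cas9 and 3 given virus labelled GCas9. Set B held 4 libraries each of virus labelled GFP, Cas9 and GCas9. Cas9 cuts DNA at sites set by a guide RNA, and GFP, which fluoresces, serves as a control cargo. The labels leave GCas9 unexplained. The study itself is known for joining Cas9 to a piece of Geminin so that the protein is degraded sooner. The injection is stated for all mice, and whether the WT mice received a virus is not stated. The mouse strain, the AAV serotype, the promoter, the dose and any guide RNA are not given in the sources used here. The age of the mice is given as 3 weeks in one label and as 3 months in another, and this was not resolved.

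Cells cut their own and foreign proteins into peptides with the proteasome, and interferon makes them swap 3 catalytic subunits of its core for the immunoproteasome subunits. The peptides pass through the TAP transporter into the endoplasmic reticulum, where Tapbp (tapasin) holds an empty heavy chain with B2m close to the transporter until a peptide binds. Nlrc5 drives transcription of most of these genes. Resting brain tissue has little class I, and in this tissue microglia, endothelial cells and infiltrating leukocytes carry most of it, while neurons raise it under interferon.

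The promoters are shown because the members turned out to vary together between libraries and because class I promoters are known for a compact array of sites. The first sequence is the 180 bases before the start of H2-K1 (chr17:34000348-34000527, minus strand) and the second is the 180 bases before that of B2m (chr2:122147507-122147686, plus strand), both in GRCm38 and from the RefSeq promoter table. Capitals mark matches found by a letter search, which are descriptions and not shown to be bound. In H2-K1 these are, in order, 2 overlapping NF-kappaB sites, an IRF core read on the other strand, an X2 box and a CCAAT box read on the other strand. In B2m they are an interferon-stimulated response element, an NF-kappaB site read on the other strand and a CCAAT box read on the other strand.
H2-K1: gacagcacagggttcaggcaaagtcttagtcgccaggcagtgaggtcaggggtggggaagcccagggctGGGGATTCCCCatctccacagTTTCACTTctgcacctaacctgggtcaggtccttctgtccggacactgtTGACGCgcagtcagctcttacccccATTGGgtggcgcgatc
B2m: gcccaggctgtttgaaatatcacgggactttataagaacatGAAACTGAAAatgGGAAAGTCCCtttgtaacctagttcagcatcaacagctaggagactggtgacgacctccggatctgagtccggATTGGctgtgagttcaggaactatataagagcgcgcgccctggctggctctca
The NF-kappaB and IRF pair is shown again for both heavy chains (H2-K1 at chr17:34000430-34000458, minus strand, and H2-D1 at chr17:35262923-35262951, plus strand), since the copies differ at 1 of 29 bases.
H2-K1 pair: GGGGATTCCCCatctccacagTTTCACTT
H2-D1 pair: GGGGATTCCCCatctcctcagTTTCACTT

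Of the 10 members, 8 had a promoter in the RefSeq table (GRCm38.p6), a window from 250 bases before to 50 after the start, and Tap2 and Nlrc5 are named only. The search used both strands. The NF-kappaB site was found in 3 of the 8 (H2-K1, H2-D1 and B2m) and in 8.46% of all 32851 windows of that length. The X2 box, TGACGC, to which the complex that recruits Nlrc5 binds, was found in 2 of 8 (H2-K1 and H2-D1) and in 7.4% of all windows. The interferon-stimulated response element (GAAA, any 2 bases, then GAAA) was found in B2m alone of the 8 and in 3.44% of all windows, and the gamma-activated site, TTCNNNGAA, in Psmb8 alone and in 8.3%. The IRF core, AANNGAAA, which overlaps the response element and was added after the promoters were read, was found in H2-K1, H2-D1 and B2m and in 23.92% of all windows. The CCAAT box was found in 6 of 8 and in 37.41%. Over the 250 bases upstream, H2-K1 and H2-D1 aligned over 188 bases with 166 identical (88.3%).

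In the genome (GRCm38, GENCODE M21) 7 of the 10 genes lie in the MHC on chromosome 17. Going up the chromosome these are Tapbp (33915899 to 33929292, plus strand), H2-K1 (33996017 to 34000347, minus), Psmb9 (34181987 to 34187764, minus), Tap1 (34187553 to 34197225, plus), Psmb8 (34197721 to 34201454, plus), Tap2 (34203527 to 34216321, plus) and H2-D1 (35262730 to 35267499, plus). Psmb9 and Tap1 stand head to head and their annotated starts overlap. B2m lies on chromosome 2 (122147686 to 122153083, plus). Nlrc5 (94434356 to 94527272, plus) and Psmb10 (105935735 to 105938444, minus) lie on chromosome 8.

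Sequence shared between genes limits how exactly some reads are assigned. Of all 50-base words in the longest coding transcript, 8.79% of H2-K1 and 14.3% of H2-D1 also occur in another gene, and for words of 100 bases the shares are 0% and 4.64%. Psmb9 shares 12.5% of its 50-base words with Tap1, and Tapbp shares 21% of its own with other genes. B2m, Psmb10 and Nlrc5 share none. Whether strand was used in counting is not given in the sources used here, so reads of the overlap between Psmb9 and Tap1 are uncertain.

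Set A had 20.34 to 28.05 M (mega) reads on genes per library and set B 6.09 to 11.07 M. In set B the Cas9 libraries (6.09 to 7.69 M) lay below the GFP libraries (7.89 to 9.75 M). Its GCas9 replicates 1, 3 and 4 were the deepest (11.07, 10.68 and 10.85 M), and GCas9 replicate 2 had 7.81 M. The labels do not say whether replicates were separate mice, so p-values measure the spread between these libraries, which may be technical. No 2 libraries of a group agreed within counting noise (smallest chi-square per degree of freedom 5.81). Markers of striatal neurons were high in all libraries, with sums of 15 genes of at least 292319 normalized counts in set A and 125319 in set B. Ttr, a choroid plexus transcript, stood at 280177 in Cas9 replicate 1 of set A and at 272 to 413 in the WT libraries. It was also above WT in GCas9 replicates 1, 2 and 3 (10462, 616 and 2711) and in Cas9 replicate 3 (1817), but not in Cas9 replicate 2 (188). In set B it stood at 9771 in Cas9 replicate 1 and at 55.3 to 495 in all other libraries.

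In set A the members were low and even in the WT libraries and spread widely in the virus libraries. H2-K1, a classical heavy chain, had 567, 504 and 487 normalized counts in WT replicates 1 to 3, 4551, 871 and 5099.9 with Cas9 and 2267, 1038 and 16254 with GCas9. The WT libraries lay below all 6 virus libraries, and within each virus group replicate 2 was closest to WT. H2-D1, the other classical heavy chain, had 658, 728 and 662 in WT, 8124, 1515 and 8618 with Cas9 and 3516, 1694 and 21583 with GCas9. B2m, the light chain that every class I molecule needs to fold, had 996, 939.6 and 1033 in WT, 8576, 1848 and 8342 with Cas9 and 3548, 1910.4 and 25376 with GCas9. All 3 genes put GCas9 replicate 3 highest and Cas9 replicates 1 and 3 next. As group means, H2-K1 was 519.5 ± 41.9 (SD, n = 3) in WT, 3507 ± 2300 with Cas9 and 6520 ± 8453 with GCas9.

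The transporter and its loading partner kept that order of libraries with unequal ranges. Tap1, which forms one arm of the transporter, had 62.6, 54.3 and 77.1 in WT, 499, 106 and 461 with Cas9 and 256, 105 and 3222 with GCas9. Tap2, the other arm, had 183, 156 and 142 in WT, 538, 202 and 468 with Cas9 and 338, 206 and 1748 with GCas9. Tap1 thus moved over a wider range than its partner, and the Tap1 level as a percentage of Tap2 went from 34.2%, 34.8% and 54.2% in WT to 184% in GCas9 replicate 3. Tapbp, the loading factor, had 540.0, 599 and 598 in WT, 1223, 641 and 941 with Cas9 and 826, 642 and 4526 with GCas9. For Tapbp the lowest virus libraries lay just above the highest WT library.

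The immunoproteasome subunits did not share one range. Psmb8 (LMP7) takes the place of Psmb5, and it had 53.9, 44.8 and 50.4 in WT, 356, 97.6 and 376 with Cas9 and 176, 89.7 and 1704 with GCas9. Psmb9 (LMP2) takes the place of Psmb6, and it had 23.1, 25.0 and 22.7 in WT, 179.9, 36.5 and 188 with Cas9 and 114, 44.3 and 1028 with GCas9. Both genes had WT below every virus library. Psmb10 (MECL-1) takes the place of Psmb7, and it had 188, 191 and 179.9 in WT, 324, 186 and 294 with Cas9 and 217, 190.2 and 1045 with GCas9. Psmb10 is the member whose groups overlapped, since replicate 2 of each virus group lay among the WT libraries.

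Nlrc5, the transcriptional regulator of the class I genes, had the widest range. It had 40.4, 28.4 and 32.6 normalized counts in WT, 408, 60.2 and 339.9 with Cas9 and 211, 71.3 and 2359 with GCas9. From the lowest to the highest library of set A, Nlrc5 spanned 82.9-fold, Tap1 59.3-fold and Psmb9 45.2-fold, and at the other end Tap2 spanned 12.3-fold, Tapbp 8.38-fold and Psmb10 5.81-fold. In set B the order of the spans began and ended with the same genes, at 26.2-fold for Nlrc5 and 3.94-fold for Psmb10.

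**Figure D1:**
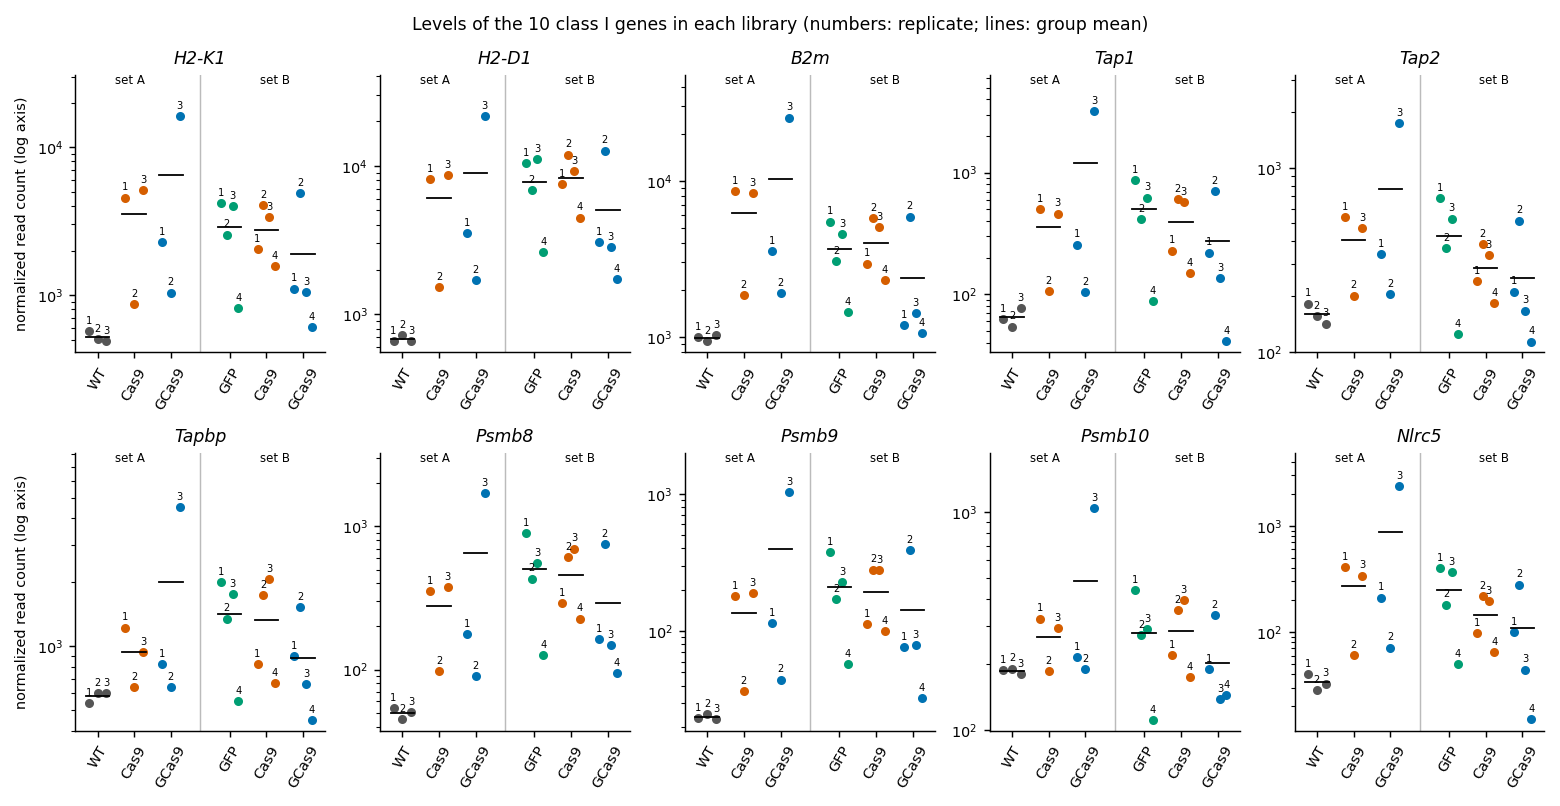
Normalized read count of each of the 10 members (log axis) in every library, by group, with set A and set B scaled apart. Points are libraries, numbered by replicate, and lines are group means. In set A the WT points lie together at the bottom and GCas9 replicate 3 is the top point of every gene, and in set B the ranges of the 3 groups overlap for every gene.

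The libraries of set A fell into nearly one order for all members. GCas9 replicate 3 was highest for 10 of 10 genes, at 5.61-fold (Psmb10) to 69.7-fold (Nlrc5) the WT mean with a median of 31.4. Cas9 replicates 1 and 3 took the next 2 ranks, at 1.74- to 12.0-fold and 1.58- to 12.6-fold. GCas9 replicate 1 followed at 1.16- to 6.23-fold, then GCas9 replicate 2 at 1.02- to 2.48-fold and Cas9 replicate 2 at 1.00- to 2.22-fold. The spread within each virus group was therefore wider than the distance between the Cas9 and the GCas9 group.

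**Figure D2:**
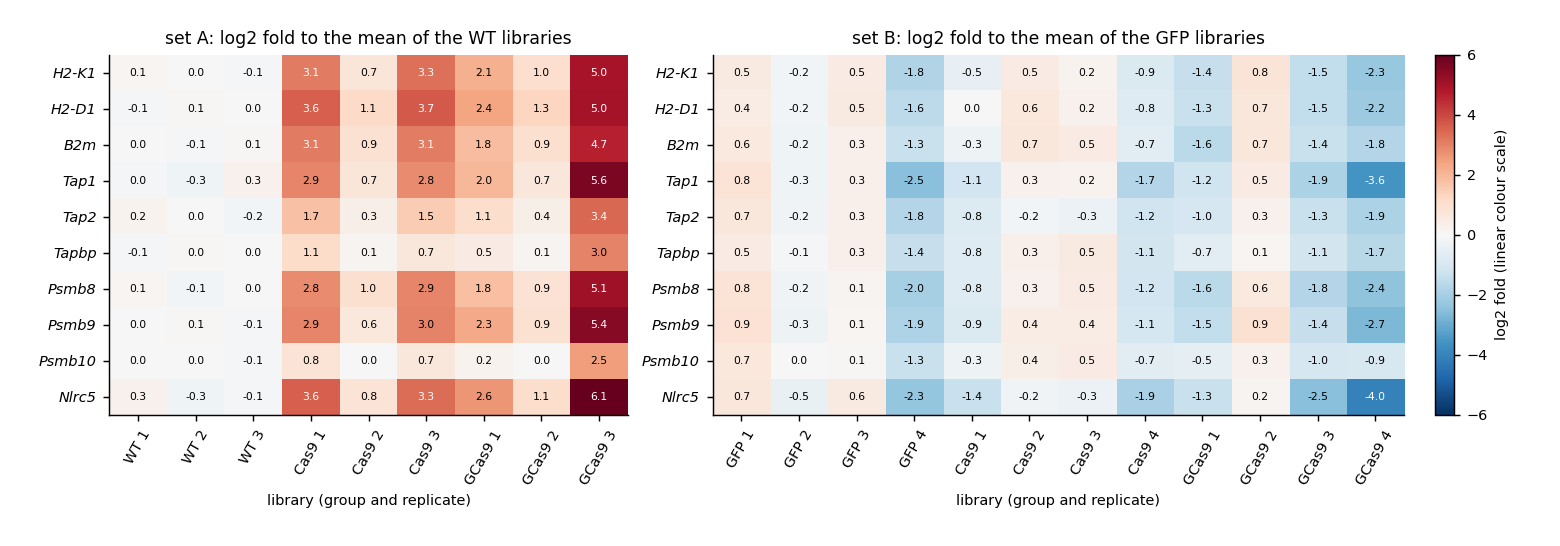
Level of each member in each library as a fold of the mean of its set's control group (WT in set A, GFP in set B), printed as log2 values on a colour scale, for each gene and library. Libraries change colour as a whole, with GCas9 replicate 3 of set A up to 69.7-fold for Nlrc5, while Tapbp and Psmb10 are the palest genes.

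The comparison of Cas9 with WT in set A asks how striatum given the nuclease differs from WT striatum. Set A holds no control virus, so the nuclease, its carrier and the injection cannot be told apart there. For 9 of the 10 members (all but Psmb10) every Cas9 library lay above every WT library, and the background over all genes tested for such separation in the higher direction was 10.7%. The fitted differences, on the log2(normalized count + 1) scale, were 2.39 (SE 0.97) for H2-K1, 2.79 (SE 0.92) for H2-D1, 2.36 (SE 0.90) for B2m and 2.57 (SE 1.16) for Nlrc5. They were 2.23 (SE 0.96) for Psmb8, 2.14 (SE 1.04) for Psmb9, 2.17 (SE 1.11) for Tap1 and 1.21 (SE 0.70) for Tap2. Tapbp and Psmb10 had the smallest differences, 0.64 (SE 0.62) and 0.49 (SE 0.56). All 10 were above 0, as were 49.1% of the 15924 genes tested, and the median over the members was 2.20, beside -0.00 over all genes.

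None of these differences passed limma's test after Benjamini-Hochberg adjustment over all genes (smallest adjusted p = 0.405, for H2-D1 and B2m, n = 3 against 3). Of all genes, 0.00628% were called (1 of 15924). At an unadjusted p under 0.05 there were 4 members (H2-K1, H2-D1, B2m and Psmb8) against 6.17% of all genes in that direction. The spread in this fit was shared by all 3 groups of the set. With only the Cas9 and WT libraries fitted, 10 members were at an unadjusted p under 0.05 (limma). No member passed there (smallest adjusted p = 0.244), where 0.0379% of all genes were called. The share of all genes at an unadjusted p under 0.05 was not measured in that fit. Fitting only GCas9 and WT gave 7 members, again without a measured share of all genes. For Cas9 against WT neither edgeR nor DESeq2 called a member (0 each), where they called 0% and 0.728% of all genes. With weights that give libraries far from their group less say, 8 members passed (all but Tapbp and Psmb10), in a fit that called 16.1% of all genes. Leaving out 1 library at a time moved the median from 1.85 (without Cas9 replicate 1) to 2.90 (without Cas9 replicate 2), and 9 or 10 members stayed above WT without overlap, where 13.8 to 21.5% of all genes did.

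GCas9 virus against WT gave the same picture with more spread. All GCas9 libraries lay above all WT libraries for 9 of 10 members, again all but Psmb10, against 9.16% of all genes. Differences were 2.70 for H2-K1 (SE 0.97), 2.89 for H2-D1 (SE 0.92), 2.49 for B2m (SE 0.90) and 3.26 for Nlrc5 (SE 1.16). They were 2.77 for Tap1, 1.63 for Tap2, 1.21 for Tapbp, 2.58 for Psmb8, 2.83 for Psmb9 and 0.91 for Psmb10. All 10 were above 0, as were 49.9% of all genes, and the median was 2.64. No member passed (smallest adjusted p = 0.724, limma, n = 3 against 3), and 0.00628% of all genes were called. At an unadjusted p under 0.05 there were 8 members (all but Tapbp and Psmb10) against 4.44% of all genes. With edgeR 0 members were called, beside 0.00628% of all genes.

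The call depended on the tool. DESeq2 called 7 of the 10 (H2-K1, H2-D1, B2m, Tap1, Psmb8, Psmb9 and Nlrc5, smallest adjusted p = 0.0134, median difference 3.68) where it called 1.37% of all genes. The median difference was 1.37 without GCas9 replicate 3 and 3.50 without GCas9 replicate 2, so the size of the difference moved with single libraries. Without GCas9 replicate 3, 9 members lay above WT with no overlap, where 12.5% of all genes did.

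GCas9 and Cas9, the comparison of the 2 nucleases, overlapped for all 10 members in set A, where 8.84% of all genes did not overlap. The fitted differences ran from 0.09 (H2-D1) to 0.70 (Nlrc5), each smaller than its standard error, with a median of 0.42. All 10 were above 0, as were 54.3% of all genes. No member passed (smallest adjusted p = 0.952, limma, n = 3 against 3) and 0% of all genes were called. An unadjusted p under 0.05 was reached by 0 members and 5.45% of all genes. Also edgeR and DESeq2 called 0 members, where they called 0% and 0.0314% of all genes. DESeq2 gave no adjusted p for 7 members. The median was -0.77 without GCas9 replicate 3, -0.14 without Cas9 replicate 2 and 1.13 without GCas9 replicate 2, so its sign rests on single libraries.

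In set B the control virus carried GFP, and members were as high with it as with the nucleases. H2-K1 had 4160.1, 2559, 3997 and 819.9 normalized counts in GFP replicates 1 to 4, 2053, 4068, 3379 and 1568 with Cas9 and 1103, 4876, 1042 and 604 with GCas9. GFP replicate 4 was low among the GFP libraries, and GCas9 replicate 2 was high above the other 3 GCas9 libraries. H2-D1 had 10451, 6876, 11138 and 2624 with GFP, 7558, 11866, 9186 and 4476 with Cas9 and 3051, 12652, 2824 and 1728 with GCas9. B2m had 5488, 3059, 4547 and 1439.5 with GFP, 2951, 5736, 5078 and 2315 with Cas9 and 1191, 5893, 1422 and 1063 with GCas9. In all 3 genes the GFP and Cas9 groups overlapped, while GCas9 replicates 1, 3 and 4 lay below every Cas9 library and GCas9 replicate 2 above them all.

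Tap1 had 875, 414, 624 and 88.3 with GFP, 229, 607, 577 and 149.8 with Cas9 and 220.3, 709, 136 and 41.4 with GCas9. Tap2 had 685, 365, 529.9 and 125 with GFP, 243, 384, 335 and 184 with Cas9 and 213, 517, 168 and 114 with GCas9. For both genes GFP replicate 1 was the highest library and GCas9 replicate 4 the lowest. Tapbp had 2008, 1348, 1762 and 551 with GFP, 821, 1743, 2071 and 670.4 with Cas9 and 896, 1527, 663 and 448 with GCas9, with Cas9 replicate 3 highest and GCas9 replicate 4 lowest.

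Psmb8 had 899.8, 433, 558 and 126 with GFP, 291, 607, 699.9 and 227 with Cas9 and 163, 754, 148 and 94.8 with GCas9. Psmb9 had 377, 171, 229 and 57.3 with GFP, 113, 281, 279.7 and 99.5 with Cas9 and 76.0, 387, 78.7 and 32.7 with GCas9. In both subunits GCas9 replicate 2 was 1 of the 2 highest libraries and GCas9 replicate 4 the lowest of all. Psmb10 had 438, 273, 289.7 and 111 with GFP, 221, 354, 394 and 174 with Cas9 and 190.4, 337, 138 and 144 with GCas9, and GFP replicate 4 was its lowest library. Nlrc5 had 397, 181, 366 and 50 with GFP, 97.1, 217, 196 and 65.1 with Cas9 and 99.0, 279, 44.1 and 15.1 with GCas9.

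By the mean over the members, set B ran from GFP replicate 1 at the top through GCas9 replicate 2 and GFP replicate 3 down to GFP replicate 4 and GCas9 replicate 4. The members thus put GFP libraries at the top and near the bottom of the order, and GCas9 libraries likewise. GCas9 replicate 4 was lowest for 9 of the 10 members.

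Cas9 against GFP gave differences from -0.57 (SE 0.79, Nlrc5) to 0.21 (SE 0.52, B2m), with a median of 0.01. The groups overlapped for all 10 members, where 4.68% of all genes did not overlap. No member passed (smallest adjusted p = 0.929, limma, n = 4 against 4) and 0% of all genes were called. An unadjusted p under 0.05 was reached by 0 members and 6.24% of all genes. With edgeR and DESeq2, 0 members were called, beside 0% and 0.0648% of all genes. The median was -0.50 without GFP replicate 4 and 0.37 without GFP replicate 1.

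GCas9 against GFP gave fitted values below 0 for 10 of 10 members, as for 50.9% of all genes, from -0.40 (SE 0.39, Psmb10) to -1.51 (SE 0.79, Nlrc5), with a median of -0.85 beside -0.00 over all 15428 genes tested. No member passed (smallest adjusted p = 0.781, for Nlrc5, limma, n = 4 against 4) and 0% of all genes were called. An unadjusted p under 0.05 was reached by 0 members and 6.48% of all genes. With edgeR and DESeq2, 0 members were called, beside 0% and 0.266% of all genes. All 10 members overlapped between the groups, where 4.16% of all genes did not overlap. Without GCas9 replicate 2, 1 member lay below GFP with no overlap, where 3.49% of all genes did. The median went from -1.46 (without GCas9 replicate 2) to -0.45 (without GCas9 replicate 4).

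GCas9 against Cas9 in set B also gave 10 of 10 fitted values below 0, as for 49.4% of all genes, with -1.07 (SE 0.55) for H2-D1, -1.06 (SE 0.52) for B2m, -0.94 (SE 0.79) for Nlrc5 and -0.36 (SE 0.50) for Tap2. The median was -0.93. No member passed (smallest adjusted p = 0.995, limma, n = 4 against 4) and 0% of all genes were called. An unadjusted p under 0.05 was reached by 0 members and 3.84% of all genes. With edgeR and DESeq2, 0 members and 0% of all genes were called. With the replicate number as a block in limma, 4 members and 4.33% of all genes reached an unadjusted p under 0.05. Groups overlapped for all 10, where 2.02% of all genes did not overlap. Without GCas9 replicate 2 the median was -1.58 and 5 members lay below Cas9 with no overlap, where 3.01% of all genes did so, and without GCas9 replicate 4 the median was -0.38.

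Over both sets, the mean of the GCas9 minus Cas9 differences had a median of -0.14, and no member passed (smallest unadjusted p = 0.383, H2-D1, limma, n = 7 against 7), with 0% of all genes called and 3.55% at an unadjusted p under 0.05. It was -0.85 without GCas9 replicate 3 of set A and 0.22 without GCas9 replicate 2 of set A. The difference between the sets in this contrast was above 0 for 10 of 10 members, as for 50.5% of all genes, with a median of 1.21. By limma it did not pass for any member (smallest unadjusted p = 0.179, Tapbp, adjusted p = 0.997), with 0% of all genes called and 4.14% at an unadjusted p under 0.05. It was 0.12 without GCas9 replicate 3 of set A and 2.02 without GCas9 replicate 2 of set A.

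**Figure D3:**
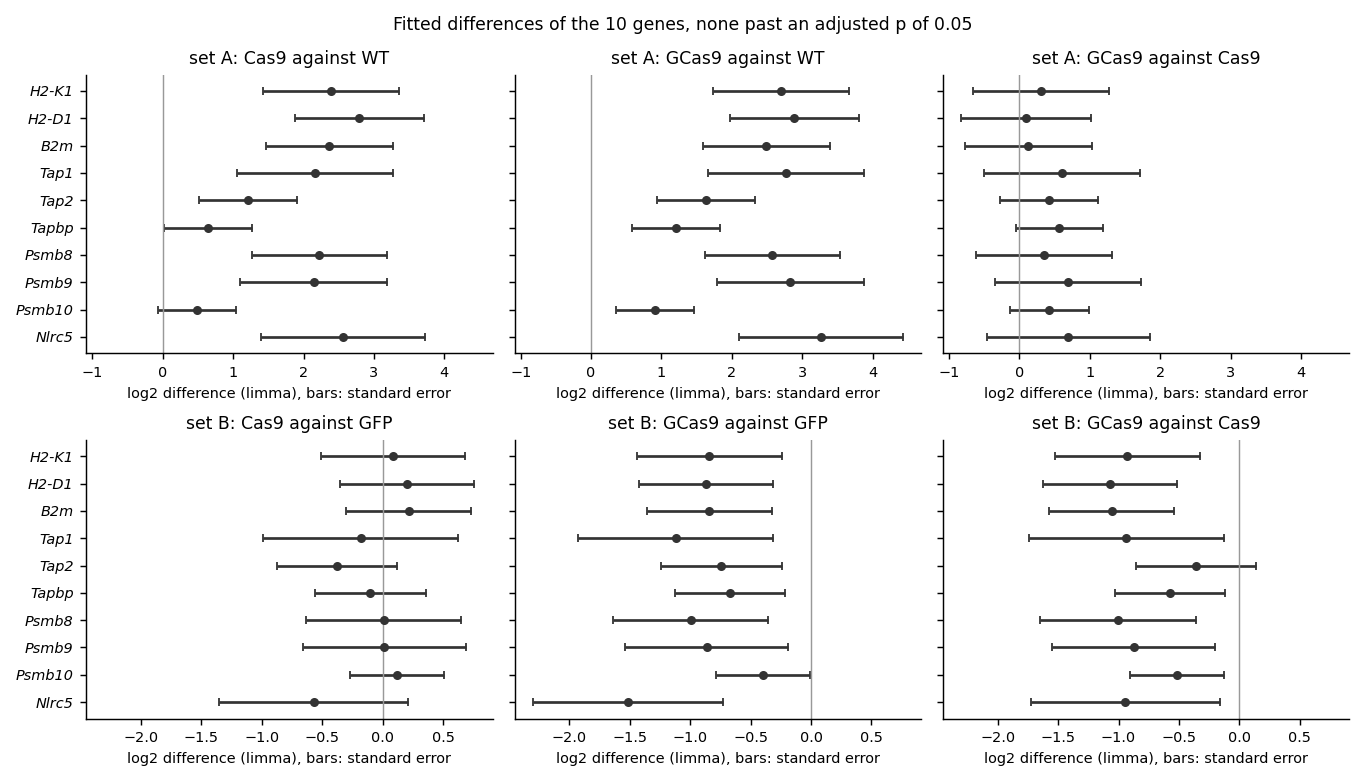
Fitted log2 differences of the 10 members with their standard errors in the 6 comparisons, from the limma fit of each set. Differences from WT lie above 0 for all 10, with Tapbp and Psmb10 lowest, and those between GCas9 and the other groups of set B lie below 0, down to -1.51 for Nlrc5.

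A ratio within a library does not depend on its scaling. Set against the constitutive subunit it replaces, Psmb8 was 12.6%, 8.1% and 9.03% of Psmb5 in WT, 73.4%, 24.9% and 65.4% with Cas9 and 41.8%, 21.1% and 296% with GCas9. Psmb8 therefore exceeded Psmb5 in read count in 1 library of set A. Psmb9 was 1.09%, 1.2% and 1.08% of Psmb6 in WT, 8.49%, 1.86% and 8.27% with Cas9 and 5.73%, 2.04% and 48.4% with GCas9. Psmb10 was 11.4%, 11.6% and 10.8% of Psmb7 in WT, 21.4%, 10.6% and 16.7% with Cas9 and 12.8%, 11.4% and 56.5% with GCas9. These are read counts not divided by gene length, so they show a change between libraries and not the protein make-up of the proteasome.

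The WT ratios lay below all virus libraries for the Psmb8 and Psmb9 pairs and overlapped them for Psmb10. The log2 ratio was higher than in WT by 2.32 (Psmb8), 2.13 (Psmb9) and 0.47 (Psmb10) with Cas9, and by 2.70, 2.84 and 0.85 with GCas9. The exact permutation test gave p = 0.1 for the Psmb8 and Psmb9 pairs, two-sided, the smallest p that 3 against 3 libraries can give. After adjustment over the 18 ratio tests the smallest p was 0.45 (exact permutation), so none passed.

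In set B, Psmb8 was 28.8 to 185% of Psmb5 with GFP, 50.3 to 125% with Cas9 and 19.0 to 168% with GCas9. Psmb9 was 3.66 to 24.5%, 6.04 to 16.9% and 1.90 to 22.3% of Psmb6 in the same groups. Psmb10 was 19.6 to 72.9%, 31.3 to 67.5% and 22.7 to 58.3% of Psmb7. All 3 pairs overlapped between all groups, and the GCas9 minus GFP differences of -0.99, -0.96 and -0.43 did not pass.

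**Figure D4:**
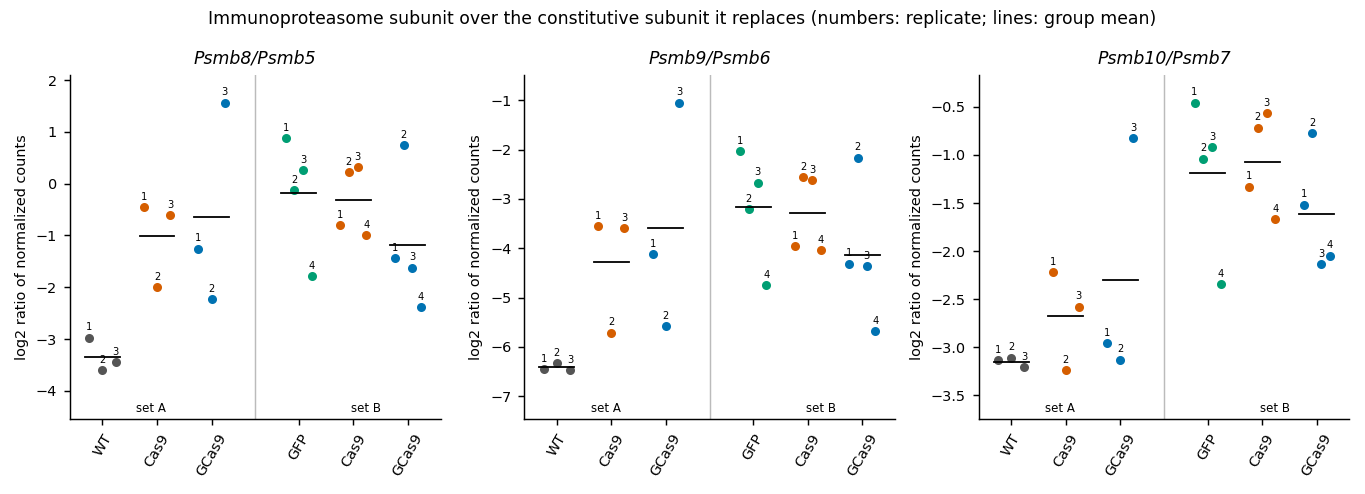
Log2 ratio of the normalized count of each immunoproteasome subunit to that of the constitutive subunit it replaces, for every library by group, sets apart. WT libraries sit lowest for Psmb8/Psmb5 (-3.60 to -2.97) and Psmb9/Psmb6 (-6.47 to -6.33), and Psmb10/Psmb7 overlaps between groups.

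The 2 classical heavy chains varied far less against each other than in level. H2-D1 was 116 to 144% of H2-K1 in WT, 169 to 179% with Cas9 and 133 to 163% with GCas9 in set A. In set B it was 251 to 320% with GFP, 272 to 368% with Cas9 and 259 to 286% with GCas9. The Cas9 libraries of set A lay above WT in this proportion, and in set B the 3 groups overlapped.

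Between genes, levels were compared per kilobase of exon, with all annotated exons of a gene joined. This length was 2938 bases for H2-K1 and 2579 for H2-D1, while their longest coding transcripts have 1619 and 2102 bases. The order of genes close in level therefore depends on the length used. In WT, B2m had 1151 ± 54.8 (SD, n = 3) normalized counts per kilobase, H2-D1 265 ± 15.1 and H2-K1 177 ± 14.3. Tapbp (160 ± 9.34) and Psmb10 (109 ± 3.42), the members that moved least, came next. Tap2 had 42.4 ± 5.45, Psmb8 14.7 ± 1.35, Tap1 11.8 ± 2.11, Psmb9 6.45 ± 0.33 and Nlrc5 3.98 ± 0.72 per kilobase. By the joined exon length H2-K1 and Tapbp did not differ beyond their spread, nor did Psmb8 and Tap1. Levels per kilobase of transcript were not computed. With GFP in set B the order of means put H2-D1 (3014 ± 1515, SD, n = 4) close to B2m (4225 ± 2060). It put Psmb8 (149 ± 94.6) above Tap2 (113 ± 63.4), and Nlrc5 was again lowest (29.3 ± 19.2). Neither H2-D1 and B2m nor Psmb8 and Tap2 differed beyond their spread there.

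The rest of the pathway was read from fixed lists, in none of which a gene passed limma's test in any comparison. Of the other class I heavy chains, 14 of the 15 with reads in set A were higher with Cas9 than WT and 13 of 15 with GCas9, counted without the filter on low values, with medians of 0.93 and 1.5. H2-Q6 differed by 4.64 (SE 1.31) with Cas9 and 4.81 with GCas9, from a WT mean of 7.24 ± 3.21 (SD, n = 3) normalized counts. H2-Q7 differed by 4.26 and 4.83, H2-Q4 by 2.98 and 3.35 and H2-M3 by 1.47 and 1.85. Qa and classical genes share long stretches of sequence, so these values are uncertain. In set B, 0 of 16 were higher with GCas9 than Cas9 and 15 were lower (median -0.48).

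In the machinery shared by all cells the list medians were at most 0.26, while single genes reached up to 1.03 (Erap1 with GCas9). The 3 constitutive catalytic subunits had medians of 0.01 with Cas9 and -0.00 with GCas9 against WT, and the 11 other 20S core subunits -0.00 and 0.04. Of the 5 genes of proteasome activation and assembly, 4 were higher in each, with Psme1, a subunit of the activator PA28, at 0.40 (SE 0.36) and 0.83 (SE 0.36), and Pomp, a proteasome assembly factor, at 0.19 (SE 0.07) and 0.23 (SE 0.07). In peptide loading and trimming, 8 and 7 of 10 were higher with medians of 0.26 and 0.16. The chaperone Pdia3 (ERp57) differed by 0.36 (SE 0.13) with Cas9 and the trimming peptidase Erap1 by 1.03 (SE 0.44) with GCas9.

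Among 15 regulators of class I transcription, 11 were higher with Cas9 than WT and 13 with GCas9, with medians of 0.13 and 0.15. Ciita, the class II counterpart of Nlrc5, had 0 to 0.962 normalized counts in WT, 6.9 to 91 with Cas9 and 14 to 278 with GCas9, a fitted difference of 4.93 (SE 1.18) and 5.42 (SE 1.18). Irf1, which binds interferon response elements, differed by 1.31 (SE 0.70) and 1.74 (SE 0.70). Of 9 interferon, receptor and kinase genes with reads in set A, 6 and 9 were higher without the filter, with medians of 0.10 and 0.18. The interferon genes of that list were too low to pass it. Ifng, chosen after its values were seen, was at 0 in all WT libraries and at most at 10.2 normalized counts with GCas9.

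Neighbours of the members on chromosome 17 had medians near 0. Of 26 neighbours outside the pathway, 10 were higher with Cas9 than WT and 13 with GCas9, with medians of -0.04 and 0.00. Their largest differences were those of Clic1, a chloride channel family protein, at 0.69 (SE 0.35) and 0.83 (SE 0.35), and Slc39a7, a zinc transporter, at 0.58 (SE 0.19) and 0.51 (SE 0.19), and neither passed. The receptors listed as readers of class I on leukocytes were low in WT, so their count is given without the filter on low values. Of 9, 8 were higher with Cas9 and 9 with GCas9, with medians of 1.66 and 2.45. Lilrb4, an inhibitory receptor for which binding to class I was not shown here, differed by 2.77 (SE 0.60) and 3.06 (SE 0.60). Cd8a, a co-receptor on cytotoxic T cells, differed by 2.41 (SE 1.41) and 3.33 (SE 1.41).

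By the root mean square difference from the mean member profile over all 21 libraries, each set centred, the nearest genes were Parp9 (0.24), Lgals3bp (0.25), Parp10 (0.25), H2-T23 (0.26), Gbp4 (0.26), Irgm1 (0.28), Irgm2 (0.28) and Ifitm3 (0.29). The 11107 candidate genes had a median of 1.23 on this log2 scale. The members themselves ran from 0.18 (Psmb8) to 0.62 (Psmb10), and 6 of the 10 (H2-D1, Tap2, Tap1, Nlrc5, Tapbp and Psmb10) lay farther from the profile than these 8 genes. Each of the 8 was highest in GCas9 replicate 3 of set A, which largely follows from choosing them by nearness to this profile. Lgals3bp had 231 to 244 normalized counts in WT and 7213 in that library, and Irgm1, an interferon-inducible GTPase, had 101 to 109.7 and 4247.

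Markers of several other cell types were also higher than in WT in set A. In set A, 9 of 9 tested B and plasma cell markers were higher with both viruses than in WT (medians 2.83 and 2.84), and their sum was 1999 to 2475 in WT, 3190.0 to 18243 with Cas9 and 4068 to 47750.2 with GCas9. For T and NK cells, 16 and 17 of 18 were higher without the filter on low values (medians 1.65 and 1.90). Their sum over 18 genes, which weighs abundant genes most, overlapped, at 3484 to 4010 in WT, 3618 to 4090 with Cas9 and 3542 to 4999 with GCas9. Their mean log2 level did not overlap with WT, at 2.03 to 2.52 in WT, 2.53 to 4.39 with Cas9 and 2.72 to 6.81 with GCas9. Gzma, Gzmb and Ncr1 were at 0 in all WT libraries. For monocytes and macrophages 10 of 10 were higher in each (medians 2.56 and 2.85), with sums of 1116 to 1400 in WT, 1967 to 3271 with Cas9 and 1941 to 5190 with GCas9. For microglia, 17 of 17 were higher in each (medians 0.58 and 0.45), with sums of 12604 to 15094, 17234 to 24303 and 16507 to 32870. Oligodendrocyte, endothelial and astrocyte markers were each higher with Cas9 for 10 of 10 (medians 0.50, 0.34 and 0.25). With GCas9 it was 3, 8 and 8 of 10 (medians -0.03, 0.09 and 0.14). Choroid plexus markers were higher for 8 of 8 with each virus (medians 2.10 and 1.25). Their sums were 794 to 1064 in WT, 686 to 296029 with Cas9 and 1270 to 11695 with GCas9. Of the 15 striatal neuron markers tested, 1 and 0 were higher (medians -0.10 and -0.11).

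In set B the sums of these lists overlapped between groups as the members did. B and plasma cell markers summed to 3139 to 16733 with GFP, 4947 to 12324 with Cas9 and 2241 to 20455 with GCas9, and microglia markers to 9087 to 15236, 9626 to 14021 and 7918 to 14951. For GCas9 against GFP without the filter on low values, the member median was -0.85. There B and plasma cell markers had -1.13 (0 of 9 higher) and T and NK cell markers -0.62 (1 of 18). Microglia markers had -0.09 (5 of 17) and monocyte and macrophage markers -0.01 (5 of 10). Single genes of these 2 lists moved more. With the filter they ran from -0.40 to 0.89 for microglia and from -2.24 to 0.84 for monocytes and macrophages. In bulk tissue, more cells of a type and more RNA per cell cannot be told apart. The part of these cells in the member levels was not tested.

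**Figure D5:**
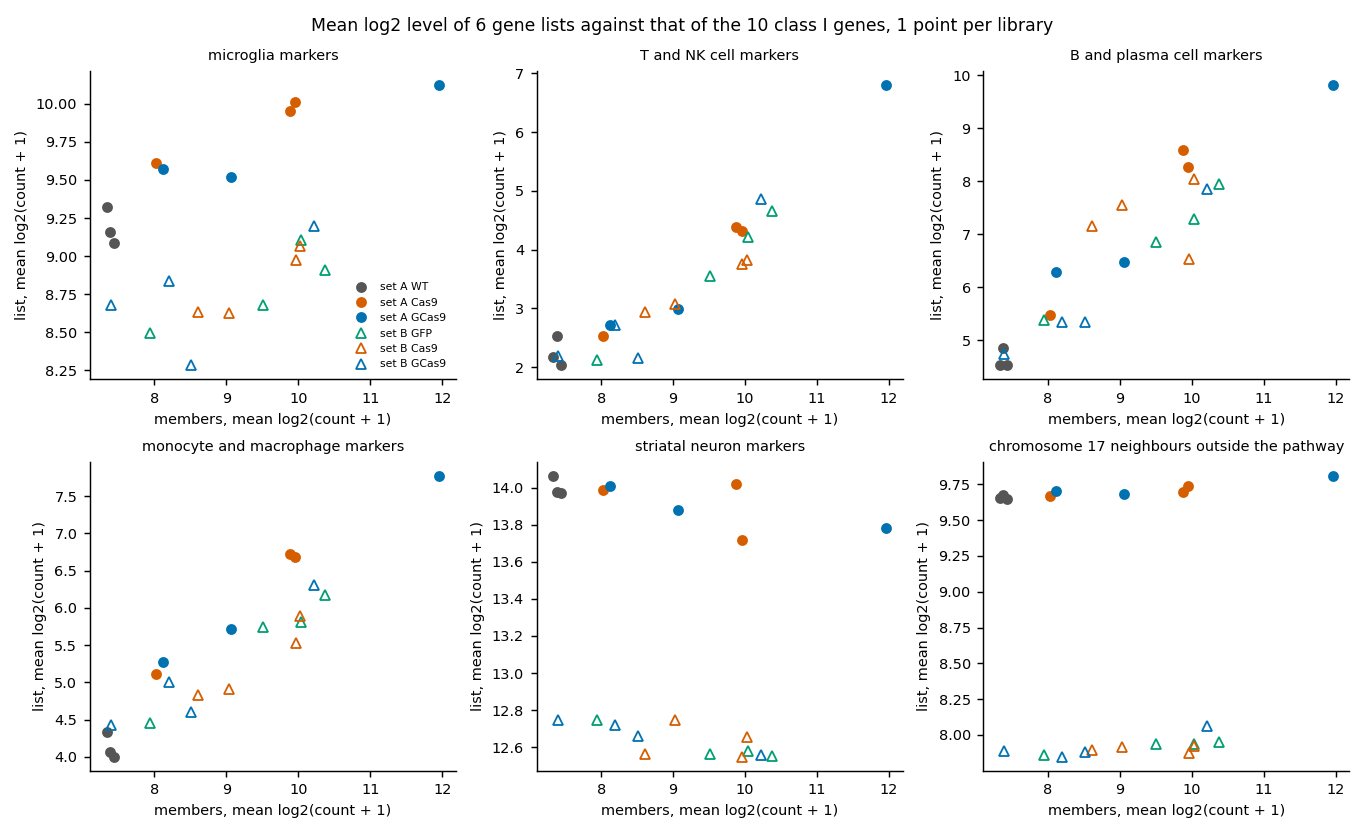
Mean log2(normalized count + 1) of 6 gene lists (vertical) against that of the 10 members (horizontal), 1 point per library, circles for set A and triangles for set B. T and NK cell, B and plasma cell and monocyte lists run from low in WT to highest in GCas9 replicate 3 of set A (6.81 for T and NK cells), while the chromosome 17 neighbours stay within a narrow band in each set.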

How the data were processed

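RNA sequencing of 21 libraries of mouse striatum was read from 1 deposited table of 41128 gene symbols, 13121 of them without reads. Tools listed in the submitters' processing notes are HTSeq, SAMtools, DESeq2, STAR (2.5.2b) and R (3.3.3), with the build GRCm38.p3 and no roles or annotation. The deposited values are a signal per gene made by the authors, the read count divided by 1 size factor per library. All of them were whole multiples of 1 step per library within 0.001 reads, so whole reads were recovered. Size factors ran from 0.88 to 1.16 in set A and from 0.72 to 1.3 in set B. Normalized totals of 23.0 to 24.18 M against 8.21 to 8.69 M show that the sets were scaled apart. Per the labels' protocols, SMARTer cDNA went into Nextera XT libraries, and molecular identifiers are not mentioned, so reads may not be independent molecules.

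log2(normalized count + 1) was tested with limma 3.58.1 in R 4.3.3 (two-sided, variance trend, the 3 groups of a set in 1 fit), for genes with a mean of at least 10, with Benjamini-Hochberg adjustment over all genes and a threshold of 0.05. Ratios were tested by exact permutation with scipy 1.17.1 in Python 3.11.15, numpy 2.4.6 and pandas 2.3.3. Alternatives were edgeR 4.0.16 (quasi-likelihood, TMM) and DESeq2 1.42.0 on the recovered reads, pseudocounts of 0.5 and 10, no filter or a mean of at least 50, quantile normalization, array weights, a replicate block, only the 2 groups compared, and each library left out. The limma, edgeR and DESeq2 fits were tested on simulated data first. Deviations of same-numbered libraries correlated over 0.1 in every pair for GCas9 and WT in set A (0.28, 0.11 and 0.20) and GCas9 and Cas9 in set B (0.12, 0.33, 0.19 and 0.27). In the other 4 comparisons at least 1 pair fell below this. Among those, GCas9 and Cas9 in set A had 0.09, 0.64 and 0.45 for replicates 1 to 3.

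The members and lists were chosen with earlier results of these data known. All members are named, up to 4 genes of smallest p per pathway list, and the 8 genes of mean at least 50 in each set that lay nearest to the member profile. Of the marker lists, endothelial, astrocyte, oligodendrocyte, choroid plexus and red cell markers were measured too. Against WT, 10, 10, 10, 8 and 1 of 10, 10, 10, 8 and 5 tested were higher with Cas9, and 8, 8, 3, 8 and 0 with GCas9.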

Additional observations from a re-analysis of the deposited data

Results flagged for a closer look

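In 5 of the 39 groups of 4 libraries tested, the highest library of the GCas9 group of set B, replicate 2, stood apart from the other 3 by Dixon's criterion at 95% on normalized counts, which flags about 1 group in 20 by chance. The 5 share 1 library and are not independent. H2-K1 was 4876 normalized counts there, against 604 to 1103 in the other 3 libraries. H2-D1 was 12652 against 1728 to 3051, and B2m was 5893 against 1063 to 1422. Psmb8 was 754 against 94.8 to 163, and Psmb9 was 387 against 32.7 to 78.7. On the log2(normalized count + 1) scale the gap over the range was 0.83 for B2m, just above the critical value, and 0.65 to 0.74 for the other 4 genes, below it. Groups of 3 libraries, and so GCas9 replicate 3 of set A, were not tested.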

How the results depend on the processing

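No member was called in the 6 comparisons under any alternative run, with 2 exceptions. Array weights called 8 members for Cas9 against WT in set A, and DESeq2 called 7 for GCas9 against WT. The cause was not tested. The replicate block changed no member call. With it the smallest adjusted p of a member (limma) was 0.342 for Cas9 and 0.499 for GCas9 against WT, 0.869 for GCas9 against Cas9 in set A, and 0.861, 0.671 and 0.971 for the comparisons of set B in the order given in the report. The number of members at an unadjusted p under 0.05 was 7 and 8 against WT, 0 for GCas9 against Cas9 in set A, and 0, 7 and 4 in set B, beside 4, 8, 0, 0, 0 and 0 without the block. In the blocked fit 7.7 and 5.86% of all genes (higher than WT), 6.17% in set A and 6.52, 7.19 and 4.33% in set B did so, in the same order. All members stayed above WT in all settings, for both nucleases.

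The sign of GCas9 against Cas9 in set A reversed with array weights, to -0.92 for H2-K1, -1.06 for H2-D1, -0.97 for B2m, -0.60 for Tap1, -0.30 for Tap2, -0.81 for Psmb8, -0.50 for Psmb9, -0.21 for Psmb10 and -0.49 for Nlrc5. Leaving out 1 library gave, from without GCas9 replicate 3 to without GCas9 replicate 2, -0.83 to 1.16 for H2-K1, -0.96 to 0.88 for H2-D1, -0.97 to 0.90 for B2m, -0.82 to 1.64 for Tap1, -0.49 to 1.05 for Tap2, -0.31 to 1.10 for Tapbp, -0.90 to 1.22 for Psmb8, -0.59 to 1.66 for Psmb9, -0.36 to 0.86 for Psmb10 and -0.72 to 1.79 for Nlrc5. The log2 ratios went from -0.73 to 1.17 (Psmb8/Psmb5), -0.57 to 1.70 (Psmb9/Psmb6) and -0.37 to 0.79 (Psmb10/Psmb7).

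For Cas9 against GFP, edgeR and DESeq2 gave -0.061 and -0.059 for H2-K1, and each gave -0.14 for Psmb8 and -0.11 for Psmb9, and array weights gave -0.071 for Psmb8 and -0.024 for Psmb9. Leaving out 1 library gave -0.44 to 0.34 for H2-K1, -0.25 to 0.47 for H2-D1, -0.18 to 0.47 for B2m, -0.88 to 0.22 for Tap1, -0.50 to 0.17 for Tapbp, -0.55 to 0.39 for Psmb8, -0.51 to 0.39 for Psmb9 and -0.26 to 0.39 for Psmb10. The ratios went from -0.66 to 0.23, -0.66 to 0.25 and -0.27 to 0.36 in the same order of pairs.

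The limits are 3 or 4 libraries a group, the wide spread among virus libraries of a group, and no control virus in set A. No member had fewer than 15 normalized counts in a library. The lowest value, Nlrc5 in GCas9 replicate 4 of set B, rests on 19 reads, and the effect of depth was not tested.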
